A study of Mus musculus with 18 samples.

Results

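The CCN genes Ccn1 to Ccn5 were followed in mouse embryonic fibroblasts, primary connective tissue cells grown from minced embryos, before and after exposure to TGFb1. Ccn3 was lower at 24 h and Ccn5 at both 4 h and 24 h in all 3 genotypes. Ccn1 was slightly higher at 4 h on its bright probe sets but not on its dimmer pair. Ccn4 was called higher at 24 h in wt cells on its brighter probe set alone, and no difference between genotypes in its response was called. The differences of the bright Ccn2 signal did not pass the test across all 9 groups. All probe sets annotated to the 5 genes were taken, which gave 10 of 45101 on the array: 4 for Ccn1 (formerly Cyr61), 1 for Ccn2 (Ctgf), 2 for Ccn3 (Nov), 2 for Ccn4 (Wisp1) and 1 for Ccn5 (Wisp2). All 10 passed the filter on dim signals, and the 5 genes were among 10078 genes tested. The remaining family member, Ccn6, had 1 probe set, which lay at a log2 level of 2.45 to 2.53 in the 18 arrays, under the log2 level of 5 below which signals were treated as dim.

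CCN proteins are secreted matricellular proteins, which sit in the matrix and signal to cells through integrins, heparan sulfate proteoglycans and other receptors rather than building fibres. They share an IGFBP-like, a von Willebrand type C and a thrombospondin module, and a C-terminal cystine knot that CCN5 lacks. In fibroblasts CCN1 and CCN2 are known as immediate products of serum, of TGFb and of the mechanosensitive coactivators YAP and TAZ. CCN3 is often described as opposing CCN2, and CCN4 and CCN5 were named for their induction by Wnt1.

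The fibroblasts came from E12.5 to E14.5 embryos from which head, liver and blood clots had been taken away. Besides wt cells there were heterozygous and homozygous carriers of a constitutively active mutant, which the series title places in TGFBR1, the type I TGFb receptor, and the design text in TGFb1. Cells of each genotype either were untreated (the design text speaks of vehicle, with no duration) or had been given TGFb1 at 5 ng/mL, for 4 h in 1 set and 24 h in another, and all were grown in medium with 10% serum. Each of the 9 groups had 2 arrays. No control matched to each time is in the labels, so time in culture cannot be told apart from TGFb1 in any of the changes. Mouse strain and any pooling of embryos are not stated. Whether the 2 arrays of 1 group hold RNA of different embryos or cultures is not in the labels. The p-values therefore speak to the scatter between these arrays alone, which may be technical.

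All 12 fibroblast markers checked lay above the dim level in every array, whereas 7 of 8 endothelial and 7 of 9 chondrocyte markers lay under it in every array. The exceptions lay above it in every array: endothelial Emcn (8.24 to 9.67) and chondrocyte Col2a1 (9.72 to 11.73) and Sox9 (5.78 to 7.91). Macrophage markers set wt apart from the mutants. The summed intensity of the 10 markers was 1389 to 5976 in wt arrays, 12422 to 19824 in heterozygous and 9030 to 13730 in homozygous arrays. The ranges of the mutants overlapped over all treatments but not within any single treatment. Wt replicates differed more than mutant replicates, with a root mean square standard deviation over genes of 0.321 to 0.387 log2 against 0.183 to 0.222. In RNA of whole cultures, fewer cells of a type and less RNA per cell cannot be told apart.

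A gene was called where limma's adjusted p was under 0.05. By this test 2 of 5 CCN genes changed in wt cells at 4 h, where 20.9% of all genes were called, and 3 at 24 h (11.7% of all genes). In heterozygous cells 2 changed at 4 h (28.8%) and 2 at 24 h (7.06%). In homozygous cells 2 changed at 4 h (37.7%) and 2 at 24 h (8.6%). The 4 h and 24 h arrays were compared with the same untreated arrays. With 2 arrays against 2, groups that do not overlap are common. They were found at 4 h and 24 h for 45.7% and 46.4% of all genes in wt, 70.7% and 56.4% in heterozygous and 79.8% and 64.9% in homozygous cells, and between 24 h and 4 h for 62.3%, 71.9% and 78.7%.

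**Figure D1:**
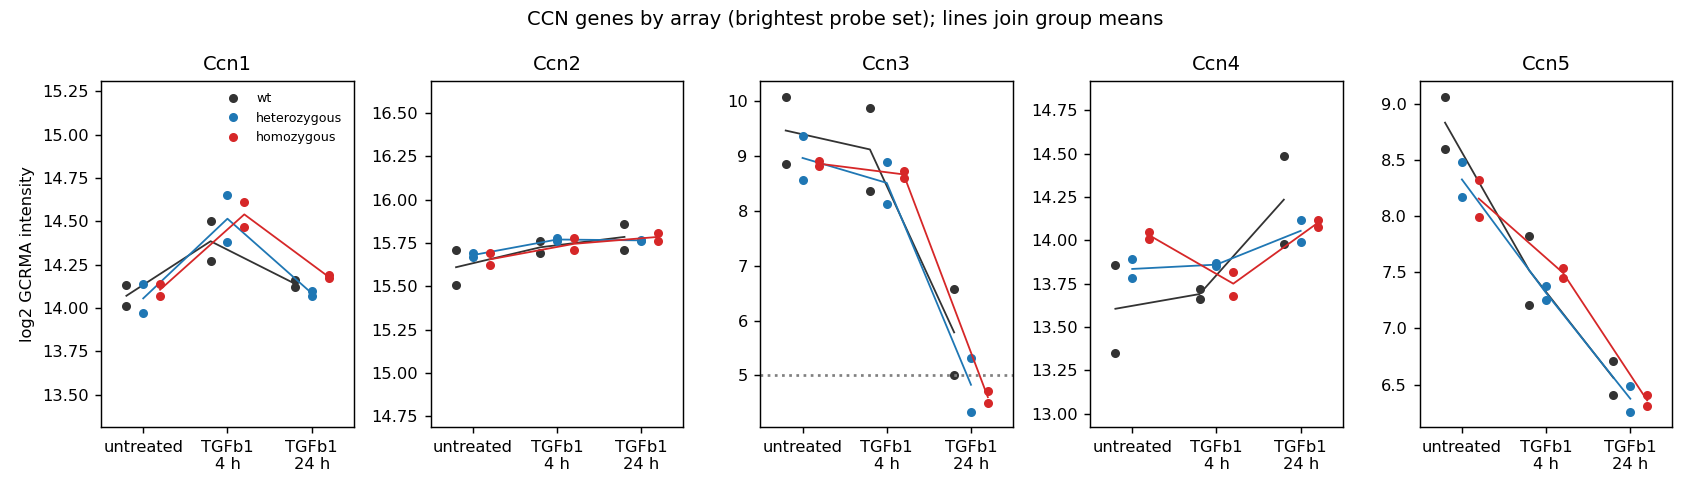
Log2 GCRMA intensity of the brightest probe set of each CCN gene in each of the 18 arrays (points), by treatment and genotype, with lines through the means of 2 arrays and a dotted line at the dim level of 5 for Ccn3. Axes differ between panels. Ccn3 drops at 24 h and Ccn5 at both times in all 3 genotypes, Ccn1 peaks at 4 h, and Ccn2 stays between 15.51 and 15.86.

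Ccn1 encodes a cysteine-rich angiogenic protein that binds integrins and is induced within minutes by growth factors. The reference table held a promoter window for Ccn1 and none for Ccn2 to Ccn5, so the Ccn1 window alone is shown. The 250 bases before the gene start (RefSeq, GRCm38.p6, chr3:145649986-145650235, minus strand, 5′ to 3′) carry in capitals the letters of a TEAD motif and of a TATA box:
Ccn1 promoter: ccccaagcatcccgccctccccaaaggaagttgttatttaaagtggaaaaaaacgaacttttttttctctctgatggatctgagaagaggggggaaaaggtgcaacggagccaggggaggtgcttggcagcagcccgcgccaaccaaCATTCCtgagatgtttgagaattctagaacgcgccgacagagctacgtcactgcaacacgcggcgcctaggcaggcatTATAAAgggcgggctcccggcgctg
Both strands of 32851 such windows, each of 250 bases before and 50 after a gene start, were searched. The TEAD motif GGAATG, which lies on the opposite strand in Ccn1, was found in 14.7% of windows. The TATA box letters TATAAA were in 13.6%. The SMAD motif CAGAC was in 49.6%, and in Ccn1 it falls within the 50 bases after the start, which are not printed. The AP-1 letters TGANTCA (7.81% of windows) were not in the Ccn1 window. Neither were the TCF/LEF letters TCAAAG (16%) or the CArG box of SRF, CCWWWWWWGG with W for A or T (1.63%). The motifs found in Ccn1 did not overlap one another.

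In untreated cells Ccn1 lay at a log2 level of 14.01 and 14.13 in the wt arrays, 13.97 and 14.14 in heterozygous and 14.07 and 14.14 in homozygous arrays. After 4 h it lay at 14.50 and 14.27, 14.38 and 14.65, and 14.47 and 14.61. Every 4 h array was above every untreated array. By 24 h the levels were back at 14.12 and 14.16 (wt), 14.07 and 14.10 (heterozygous) and 14.19 and 14.17 (homozygous).

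The rise of Ccn1 at 4 h was 0.31 ± 0.10 log2 in wt cells (standard error of the limma fit, 1.24-fold, adjusted p = 0.0385), 0.46 ± 0.10 in heterozygous (1.38-fold, 0.00387) and 0.44 ± 0.10 in homozygous cells (1.35-fold, 0.00386). Genes called higher at 4 h in all 3 genotypes made up 7.66% of those tested. From 4 h to 24 h Ccn1 fell in heterozygous (-0.43 ± 0.10, adjusted p = 0.00542) and homozygous cells (-0.37 ± 0.10, 0.0111), and the wt value of -0.24 ± 0.10 did not pass (0.0691). At 24 h the differences from untreated cells were 0.03 to 0.07 log2, with no call. The wt rise passed in 9 of 17 alternatives (adjusted p 0.0104 to 0.396), and without untreated wt replicate 1 it was 0.25 (adjusted p = 0.192), without wt 4 h replicate 1 0.19 (0.176). The later fall did not pass without 4 h replicate 2 in heterozygous (-0.30, adjusted p = 0.0612) or homozygous cells (-0.29, 0.0917), nor without homozygous 24 h replicate 1 (-0.37, 0.0516) or 2 (-0.36, 0.0594), and the wt value passed without wt 4 h replicate 2 (-0.36, adjusted p = 0.0335).

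The 4 Ccn1 probe sets fell into a bright pair and a dimmer pair that responded unequally. The brightest, 1438133_a_at, is the one given above, and the other bright one, 1416039_x_at, rose at 4 h by 0.35 ± 0.08, 0.38 ± 0.08 and 0.37 ± 0.08 log2 in wt, heterozygous and homozygous cells (limma adjusted p = 0.0129, 0.00484 and 0.00428 over all probe sets). The dimmer pair, 1442340_x_at and 1457823_at, which the platform annotation ties to a shared source sequence, stood at -0.10 to 0.23 log2 at 4 h and at -0.43 to -0.22 at 24 h, with no call. Averaging the 4 probe sets gave Ccn1 changes at 4 h of 0.16, 0.19 and 0.31, none of which passed (adjusted p = 0.396, 0.289 and 0.0776). The heterozygous fall from 4 h to 24 h also did not pass on that average (-0.33, 0.0652).

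Ccn2 encodes connective tissue growth factor, a classic TGFb target in fibroblasts and a marker of fibrosis. Its single probe set lay at 15.71 and 15.51 in untreated wt arrays, 15.69 and 15.76 at 4 h and 15.71 and 15.86 at 24 h. The heterozygous arrays lay at 15.67 and 15.69, then 15.76 and 15.78, then 15.76 and 15.77. The homozygous arrays lay at 15.62 and 15.69, then 15.71 and 15.78, then 15.81 and 15.76. In both mutants every treated Ccn2 array lay above the untreated ones, by small steps, whereas the wt groups overlapped. Over all genes, treated and untreated groups did not overlap at 4 h and 24 h for 70.7% and 56.4% in heterozygous and 79.8% and 64.9% in homozygous cells. In wt cells these shares were 45.7% and 46.4%, so the contrast is not read as a result about Ccn2.

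None of the 12 comparisons of groups called Ccn2 in limma (adjusted p from 0.116 to 1), and 1 had an unadjusted p under 0.05. The TGFb1 differences were 0.08 to 0.17 log2, the largest being 0.17 ± 0.07 in wt cells at 24 h (95% interval 0.03 to 0.31, adjusted p = 0.116). Without untreated wt replicate 1 that value was 0.27 and passed (adjusted p = 0.0144; over its 17 alternatives 0.0144 to 0.593). For heterozygous cells at 24 h the interval of the Ccn2 difference was -0.06 to 0.23, and for homozygous cells -0.01 to 0.27. The homozygous value of 0.13 passed with array weights (adjusted p = 0.022; over its 17 alternatives 0.022 to 0.751). The linear Ccn2 signal was 46768 to 59642, where the brightest probe set of an array reached 78766 to 90796, and whether saturation bears on the Ccn2 values was not tested.

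Ccn3 encodes the nephroblastoma overexpressed protein, a CCN member with growth-restraining activity in many cells. Untreated arrays lay at 10.08 and 8.85 (wt), 9.36 and 8.57 (heterozygous) and 8.91 and 8.81 (homozygous). At 4 h they lay at 8.37 and 9.87, 8.90 and 8.12, and 8.73 and 8.60. At 24 h they had dropped to 5.00 and 6.57 in wt, 5.32 and 4.34 in heterozygous and 4.50 and 4.71 in homozygous cells. No 24 h array reached the level of any array of the other groups, while the 4 h and untreated arrays of wt and heterozygous cells overlapped.

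At 24 h Ccn3 changed by -3.69 ± 0.58 log2 in wt (12.9-fold lower, limma adjusted p = 0.00145) and -4.14 ± 0.58 in heterozygous cells (17.6-fold lower, 0.000832). In each of these groups 1 of the 2 treated arrays lay under the dim level, so the sizes are uncertain. In homozygous cells both lay under it, and Ccn3 fell at least 14.5-fold, from the untreated mean to that level (adjusted p = 0.000623). At 4 h the differences were -0.35 ± 0.58, -0.46 ± 0.58 and -0.19 ± 0.58 (adjusted p = 0.712, 0.59 and 0.829), with 95% intervals of -1.61 to 0.92, -1.72 to 0.81 and -1.46 to 1.07. The standard error is pooled over all 9 groups, whose scatter differed. In untreated and 4 h arrays the standard deviation of Ccn3 was 0.87 and 1.06 in wt but 0.07 and 0.09 in homozygous cells. Genes called lower at 24 h in all 3 genotypes were 2.98% of those tested.

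Between 4 h and 24 h Ccn3 changed by -3.34 ± 0.58 log2 in wt cells (adjusted p = 0.00134) and by -3.68 ± 0.58 in heterozygous cells (0.00067), with 1 of 2 24 h arrays under the dim level in each. In homozygous cells the fall was at least 12.7-fold (0.000307). The second Ccn3 probe set, 1426852_x_at, changed by -4.15 ± 0.50 and -3.92 ± 0.50 at 24 h in wt and heterozygous cells (limma adjusted p = 0.000293 and 0.000586 over all probe sets). Its wt 24 h arrays lay at 5 and 5.57, and 1 of the 2 heterozygous ones lay under the dim level, so these sizes are uncertain too. In homozygous cells both lay under it, and the fall was at least 16.4-fold (0.000146). With only the 2 groups compared in the fit, the wt call at 24 h was lost (adjusted p = 0.0948, over its 17 alternatives 4.05e-08 to 0.0948), as was that of 24 h against 4 h (0.0949).

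Ccn3 is also known from muscle and nervous tissue, so those marker lists are given beside it. Of 10 skeletal muscle markers 3 lay above the dim level in every array and 4, Myod1, Ckm, Tnnt3 and Actn2, under it in every array. The summed intensity of the 10 was 3500 to 3636 in untreated and 2168 to 6307 in 24 h wt arrays, 1782 to 2244 and 1213 to 1668 in heterozygous arrays, and 1574 to 1718 and 1196 to 1402 in homozygous arrays. Acta1 (log2 9.36 to 12.66) and Des (7.7 to 10.25) reached the highest levels, and such a sum rests mostly on its brightest members. The 7 neural markers on the array, of which Elavl4, Map2 and Nefl lay under the dim level in every array, summed to 950 to 1703 and 960 to 1039 in wt, 739 to 882 and 621 to 689 in heterozygous, and 897 to 982 and 784 to 872 in homozygous arrays. Both sums were lower at 24 h than in untreated cells in the mutants. At 4 h they were higher, at 2465 to 3191 for muscle and 1084 to 1103 for neural markers in heterozygous and 2005 to 2434 and 1156 to 1344 in homozygous arrays. In wt cells the sums overlapped between untreated and 24 h arrays. The mean log2 level of the lists was lower at 24 h there, at 5.1 against 5.63 for muscle and 5.19 against 5.66 for neural markers. For macrophage markers this mean fell at 24 h from 7.21 to 6.54 in wt, 9.72 to 9.24 in heterozygous and 9.17 to 8.58 in homozygous cells. The part of these cell types in the falls of Ccn3 and Ccn5 was not tested.

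**Figure D2:**
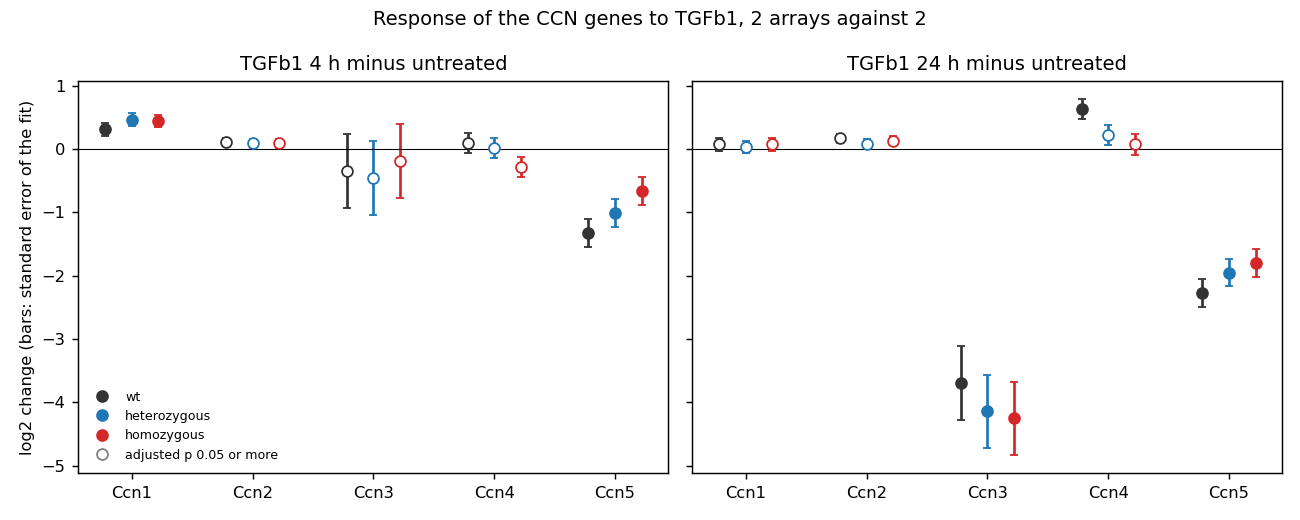
Log2 change of each CCN gene, TGFb1 minus untreated, at 4 h and 24 h in the 3 genotypes (points, limma fit of 2 arrays against 2, bars the standard error); open points did not pass the test. Ccn3 falls at 24 h and Ccn5 at both times in each genotype, and Ccn1 rises at 4 h. The plotted Ccn3 values at 24 h rest on 24 h arrays of which 1 (wt, heterozygous) or 2 (homozygous) lay under the dim level.

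Ccn4 encodes a Wnt-inducible secreted protein made by mesenchymal cells. Its brighter probe set, 1448594_at, lay at 13.86 and 13.35 in untreated wt arrays, 13.72 and 13.66 at 4 h and 13.98 and 14.49 at 24 h. The heterozygous arrays lay at 13.78 and 13.89, then 13.85 and 13.87, then 14.12 and 13.99. The homozygous arrays lay at 14.05 and 14.01, then 13.68 and 13.82, then 14.08 and 14.12. In all 3 genotypes both 24 h arrays lay above both untreated ones, by a small margin in homozygous cells, where both 4 h arrays lay below them.

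In wt cells Ccn4 rose at 24 h by 0.63 ± 0.16 log2 (1.55-fold, limma adjusted p = 0.0199), and by 0.54 ± 0.16 from 4 h to 24 h (0.0174). The 24 h differences in heterozygous (0.22 ± 0.16, adjusted p = 0.559) and homozygous cells (0.07 ± 0.16, 0.898) did not pass, nor did the homozygous 4 h value of -0.29 ± 0.16 (0.167), which passed with array weights (0.0146) or only the groups compared (0.0108; over its 17 alternatives 0.0108 to 0.579). The dimmer probe set, 1448593_at, gave 0.39 ± 0.13 in wt cells at 24 h (adjusted p = 0.0775 over all probe sets) and 0.10 ± 0.13 from 4 h to 24 h (0.59). In homozygous cells at 4 h it gave 0.08 ± 0.13 (0.654), the other sign from the brighter one, and none of these passed. The wt rise passed in 13 of 17 alternatives (adjusted p 0.00263 to 0.323), and it was 0.37 without untreated wt replicate 2 (adjusted p = 0.162) and 0.38 without wt 24 h replicate 2 (0.191). The rise from 4 h to 24 h passed in 12 of 17 (0.00353 to 0.187), and did not pass without wt 24 h replicate 2 (0.29, adjusted p = 0.187) or wt 4 h replicate 2 (0.51, 0.0854), with the mean of both probe sets (0.32, 0.0805), with array weights (0.0735) or with only the groups compared (0.152).

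**Figure D3:**
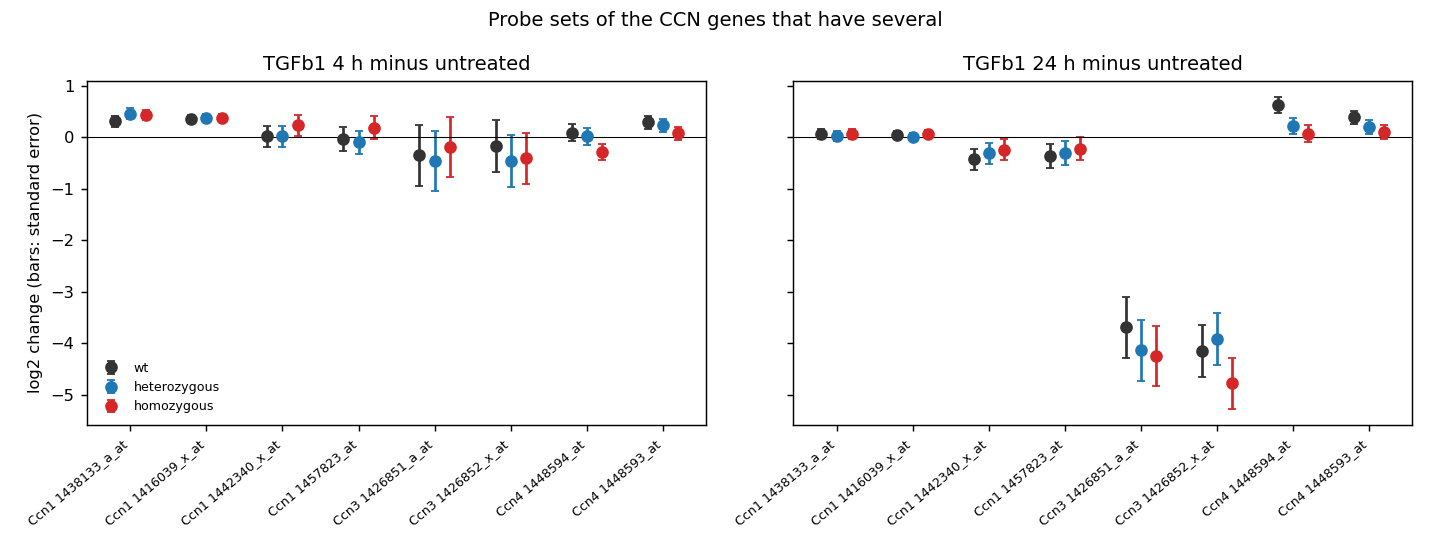
Log2 change, TGFb1 minus untreated, of every probe set of the CCN genes with more than 1 probe set (points, limma fit over all probe sets, bars the standard error), at 4 h and 24 h in the 3 genotypes. The bright Ccn1 pair rises at 4 h and the dimmer pair lies between -0.10 and 0.23, while both Ccn3 probe sets drop at 24 h. The plotted homozygous Ccn3 values at 24 h rest on arrays under the dim level.

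Ccn5 encodes the shortest family member, known from smooth muscle and fibroblasts as a restraint on growth and migration. Untreated arrays lay at 9.06 and 8.60 (wt), 8.48 and 8.17 (heterozygous) and 7.99 and 8.32 (homozygous). After 4 h they lay at 7.21 and 7.82, 7.25 and 7.38, and 7.45 and 7.54. After 24 h they lay at 6.41 and 6.71, 6.26 and 6.49, and 6.41 and 6.31. The 3 times did not overlap within any genotype, and all arrays were above the dim level.

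At 4 h Ccn5 changed by -1.32 ± 0.22 log2 in wt (2.49-fold lower, limma adjusted p = 0.00151), -1.01 ± 0.22 in heterozygous (2.01-fold, 0.00462) and -0.66 ± 0.22 in homozygous cells (1.58-fold, 0.0316). At 24 h the changes were -2.27 ± 0.22 (4.83-fold lower, 3.65e-05), -1.95 ± 0.22 (3.85-fold, 0.000157) and -1.80 ± 0.22 (3.47-fold, 0.000266). From 4 h to 24 h Ccn5 changed by -0.96 ± 0.22 in wt (0.00579), -0.94 ± 0.22 in heterozygous (0.00657) and -1.14 ± 0.22 in homozygous cells (0.00194). All 3 falls at 24 h passed in all 17 alternatives run for each (highest adjusted p 0.0459, 0.0141 and 0.00561).

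Of the 4 h falls of Ccn5, the wt one did not pass with array weights (adjusted p = 0.0841) or only the groups compared (0.169, over its 17 alternatives 0.00017 to 0.169). The homozygous one passed in 11 of 17 (0.0014 to 0.21), and it was -0.49 without untreated homozygous replicate 2 (adjusted p = 0.21), -0.62 without homozygous 4 h replicate 1 (0.134) and -0.70 without homozygous 4 h replicate 2 (0.0864). The fall from 4 h to 24 h did not pass without wt 4 h replicate 2 (-0.65, 0.0648) or heterozygous 24 h replicate 1 (-0.82, 0.0571).

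The comparison of 24 h with 4 h called 3 of 5 CCN genes in each genotype: Ccn3, Ccn4 and Ccn5 in wt cells (34.3% of all genes called), and Ccn1, Ccn3 and Ccn5 in heterozygous (32.2%) and homozygous cells (36.9%). Ccn5 thus passed the test in both steps in all 3 genotypes, while Ccn3 passed it between 4 h and 24 h and not at 4 h. These calls rest on the brightest probe set of each gene. The other bright Ccn1 probe set was called lower in wt cells too (-0.31 ± 0.08, limma adjusted p = 0.0119 over all probe sets).

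Between untreated genotypes 0 of 15 CCN tests passed in limma (adjusted p 0.132 to 1) and 3 had an unadjusted p under 0.05, where 0.923% of all genes were called for heterozygous against wt, 1.77% for homozygous against wt and 0% for homozygous against heterozygous. Those 3 concerned Ccn5, which differed from wt by -0.51 ± 0.22 log2 in heterozygous (adjusted p = 0.478) and -0.68 ± 0.22 in homozygous cells (0.132), and Ccn4, which differed by 0.43 ± 0.16 in homozygous cells (0.172). The Ccn4 difference was 0.68 and passed without untreated wt replicate 1 (adjusted p = 0.0213; over its alternatives 0.0213 to 0.658). Untreated mutant and wt arrays did not overlap for Ccn5 in either mutant, nor for Ccn4 in homozygous cells, as for 34.3% of all genes in heterozygous and 46.7% in homozygous cells. Homozygous and heterozygous arrays did not overlap for Ccn4, as for 44% of all genes. With a crossed replicate block (the numbers of untreated wt arrays exchanged), chosen after seeing the data, Ccn3, Ccn4 and Ccn5 were called for homozygous against wt. The differences of Ccn3 were -0.50 ± 0.58 and -0.61 ± 0.58, and those of Ccn1 and Ccn2 were between -0.02 and 0.07. Macrophage marker intensity also differed between these genotypes, as given above, and its part in these differences was not tested.

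The responses of the mutants were tested against that of wt cells as interactions, and 0 of 20 CCN interactions passed in limma (lowest adjusted p 0.598), with 1 unadjusted p under 0.05. No gene of the table was called in the 4 interactions (0%). At 4 h this count rests on single wt arrays: leaving out wt 4 h replicate 1 or untreated wt replicate 1 raised it in both mutants. At 24 h the count changed little when single arrays were left out. The CCN interactions stayed uncalled in all 21 alternatives run for each. The unadjusted one was Ccn4 at 24 h in homozygous cells, whose response minus that of wt was -0.56 ± 0.22 log2 (95% interval -1.04 to -0.09, adjusted p = 0.824). For Ccn5 the homozygous response minus that of wt was 0.66 ± 0.31 at 4 h (interval -0.01 to 1.33, adjusted p = 0.598) and 0.48 ± 0.31 at 24 h (-0.19 to 1.15, 0.883). For Ccn3 the intervals were wide, -2.36 to 1.22 in homozygous cells at 24 h, a comparison whose size is uncertain because both treated arrays lay under the dim level. These intervals do not show that the genotypes responded alike.

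Genes with the most similar profile were sought for the CCN genes whose 9 group means span at least 1 log2. These were Ccn3 (4.86) and Ccn5 (2.47), against 0.49, 0.17 and 0.63 for Ccn1, Ccn2 and Ccn4. The Ccn3 span ends at the homozygous 24 h mean, where both arrays lay under the dim level, so its size is uncertain. Pearson's r was taken over the 9 group means among 2454 named genes that also span at least 1 log2. It is a description of means that share arrays and treatments. Genes chosen by it change like the CCN gene by selection, so their calls on these arrays are no separate evidence. Closest to Ccn3 were Cpa6, a secreted carboxypeptidase (r = 0.997), Itga8, an integrin subunit of mesenchymal cells (0.994), and Col6a2, a type VI collagen chain (0.992). Itga8 changed by -0.33 ± 0.42 log2 in wt cells at 4 h (adjusted p = 0.616) and by -2.67 ± 0.42 at 24 h (0.00147), Cpa6 by -0.18 ± 0.29 (0.692) and -1.69 ± 0.29 (0.00254). Col6a2 changed by -1.39 ± 0.25 at 24 h (0.00355). None of the 3 was called at 4 h in any genotype, and all 3 were lower at 24 h in each.

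Closest to Ccn5 were Camk2g, a calmodulin-dependent kinase subunit (r = 0.99), Kctd12b (0.981) and Tgfbr3, the TGFb co-receptor betaglycan (0.981). Tgfbr3 changed in wt cells by -2.05 ± 0.44 log2 at 4 h (limma adjusted p = 0.00642) and -3.15 ± 0.44 at 24 h (0.00053), and it was called at both times in both mutants as well. Camk2g changed in wt cells by -0.51 ± 0.16 (0.0368) and -0.85 ± 0.16 (0.00385), and in the mutants it was called at 24 h but not at 4 h (-0.25 in heterozygous, 0.244, and -0.33 in homozygous cells, 0.117). The Kctd12b values of -0.48 ± 0.88 and -1.08 ± 0.88 did not pass (0.735 and 0.49). Among the CCN genes themselves, group means of Ccn3 and Ccn5 had r = 0.894 over 9 groups. Ccn2 had r = -0.934 with Ccn5 and -0.725 with Ccn3, Ccn4 had -0.712 and -0.792, and Ccn1 had -0.132 and 0.275. The group means of Ccn1, Ccn2 and Ccn4 spanned 0.49, 0.17 and 0.63 log2, less than the search required, so these r values rest on small differences. For Ccn2 no comparison of groups was called.

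**Figure D4:**
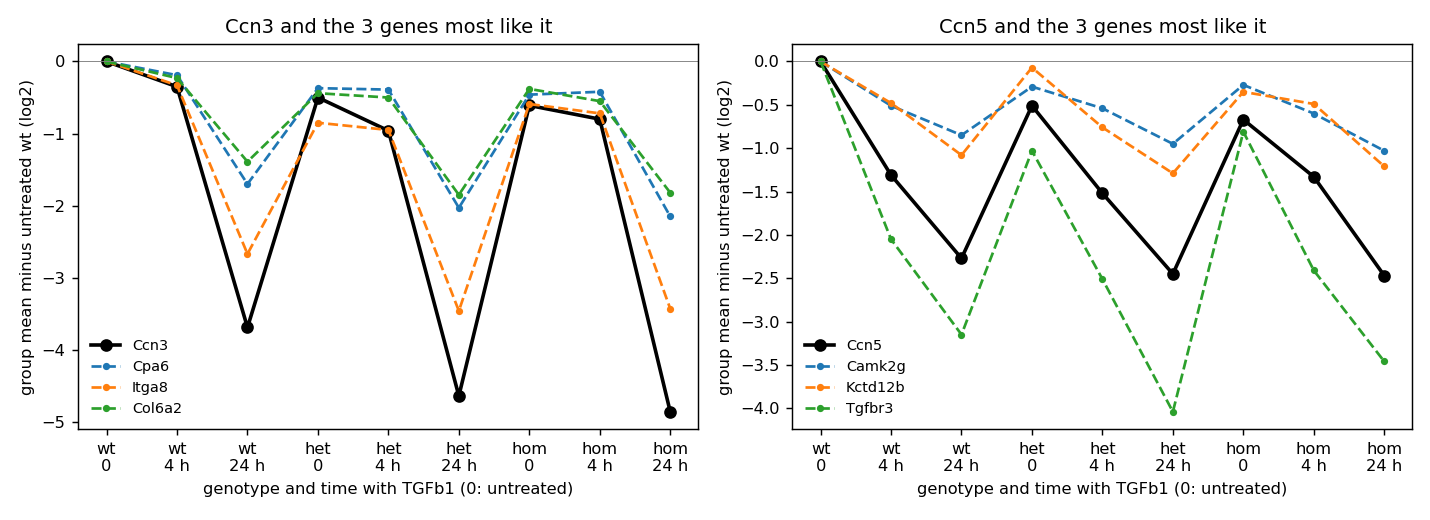
Group means relative to untreated wt cells (log2) of Ccn3 and Ccn5 (black) and of the 3 genes with the highest Pearson r to each over the 9 groups (dashed), by genotype and time with TGFb1. Cpa6, Itga8 and Col6a2 drop at 24 h like Ccn3, and the means of Camk2g, Kctd12b and Tgfbr3 are lower at 4 h and lower again at 24 h. Kctd12b passed no test, and from 4 h to 24 h Camk2g passed in homozygous and Tgfbr3 in heterozygous cells alone (adjusted p = 0.0444 and 0.0179).

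Ccn1 and Ccn2 are textbook targets of YAP and TAZ, which act through TEAD factors, so the other genes of that pathway were counted. Of 23 measured YAP/TAZ-TEAD target genes 3 rose and 2 fell in wt cells at 4 h (median -0.15 log2, against -0.03 for all genes) and 5 rose and 0 fell at 24 h (0.19, against -0.06). In heterozygous cells the counts were 7 and 2 at 4 h and 3 and 0 at 24 h, in homozygous cells 5 and 4, and 2 and 2. At 4 h and 24 h 21.7% and 21.7% of the list were called in wt cells, 39.1% and 13% in heterozygous and 39.1% and 17.4% in homozygous cells. Over all genes these shares were 20.9% and 11.7%, 28.8% and 7.06%, and 37.7% and 8.6%. Nuak2, a kinase, rose in wt cells by 1.61 ± 0.19 at 4 h (limma adjusted p = 0.000162) and 0.97 ± 0.19 at 24 h (0.00522). F3, tissue factor, rose by 1.07 ± 0.28 at 4 h (0.0184) and Ptpn14, a phosphatase that restrains YAP, fell by 0.90 ± 0.23 (0.0163), while Gadd45a (1.01 ± 0.25, 0.0187) and Fjx1 (0.89 ± 0.22, 0.0226) rose at 24 h.

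Of 17 measured Hippo pathway and TEAD genes, 1 rose and 2 fell in wt cells at 4 h (median -0.13, against -0.03 for all genes) and 1 rose and 0 fell at 24 h (0.15, against -0.06). The counts at 4 h and 24 h were 2 and 2, then 0 and 1 in heterozygous cells, and 1 and 5, then 0 and 1 in homozygous cells. The shares called at 4 h were 17.6%, 23.5% and 35.3% in wt, heterozygous and homozygous cells (20.9%, 28.8% and 37.7% of all genes) and 5.88% at 24 h in each (11.7%, 7.06% and 8.6%). All lay under the share of all genes, but 5.88% is 1 gene of 17, so this is not read as a result about the pathway. In wt cells Yap1 itself fell by 0.30 ± 0.08 at 4 h (limma adjusted p = 0.0213), as did Sav1, a scaffold of the Hippo kinases (-0.46 ± 0.10, 0.00804), and the upstream regulator Frmd6 rose by 0.42 ± 0.09 (0.0079). Wwtr1, the gene of TAZ, rose in wt cells at 24 h by 0.37 ± 0.10 (0.0281).

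Binding partners of CCN proteins, 21 measured, held 5 higher and 2 lower at 4 h in wt cells (median 0.04) and 5 higher and 1 lower at 24 h (0.14). In heterozygous cells 5 rose and 3 fell at 4 h and 5 rose and 1 fell at 24 h, and in homozygous cells 5 and 7, then 4 and 1. The shares called at 4 h were 33.3%, 38.1% and 57.1% in wt, heterozygous and homozygous cells (20.9%, 28.8% and 37.7% of all genes), and at 24 h 28.6%, 28.6% and 23.8% (11.7%, 7.06% and 8.6%). Vegfa, an angiogenic factor bound by CCN2, rose by 2.34 ± 0.13 and 1.65 ± 0.13 at 4 h and 24 h in wt cells (limma adjusted p = 6.33e-07 and 8.75e-06), and Fgf2 by 2.54 ± 0.19 and 1.84 ± 0.19 (6.26e-06 and 7.75e-05). Itgb3, a subunit of the CCN-binding integrin alpha-v beta-3, rose by 1.76 ± 0.25 at 4 h (0.000544), and Bmp4, bound by CCN2, fell by 1.77 ± 0.17 at 24 h (3.57e-05).

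Wnt targets and inhibitors, listed because Ccn4 and Ccn5 carry a Wnt-inducible name, had 14 of 22 members measured; Axin2, Lgr5 and Notum were among those not. In wt cells 1 rose and 3 fell at 4 h (median -0.17) and 0 rose and 2 fell at 24 h (-0.15), the latter being Dkk2, a secreted Wnt inhibitor (-0.90 ± 0.21, limma adjusted p = 0.0151), and Tcf7l1 (-0.70 ± 0.12, 0.00201). At 4 h the receptor gene Fzd1 (-1.13 ± 0.16, 0.000544) and the transcription factor gene Tcf7l2 (-0.75 ± 0.18, 0.0123) fell and Lef1 rose (0.63 ± 0.21, 0.0456). The counts were 1 and 3, then 0 and 1 in heterozygous cells, and 1 and 4, then 0 and 2 in homozygous cells. The shares called at 4 h were 28.6%, 28.6% and 35.7% in wt, heterozygous and homozygous cells (20.9%, 28.8% and 37.7% of all genes), and at 24 h 14.3%, 7.14% and 14.3% (11.7%, 7.06% and 8.6%), mostly near the share of all genes.

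TGFb/Smad feedback and target genes, the reference for a response to the ligand, rose in 11 and fell in 0 of 18 cases at 4 h in wt cells (median 0.81) and rose in 8 and fell in 2 at 24 h (0.27). They rose in 9 and 6 cases at 4 h and 24 h in heterozygous cells (1 and 0 fell) and in 12 and 7 in homozygous cells (1 and 1 fell). The shares called at 4 h were 61.1%, 55.6% and 72.2% in wt, heterozygous and homozygous cells (20.9%, 28.8% and 37.7% of all genes), and at 24 h 55.6%, 33.3% and 44.4% (11.7%, 7.06% and 8.6%). Il11, a cytokine and strong TGFb target, rose by 4.19 ± 0.28 log2 in wt cells at 4 h (limma adjusted p = 2.45e-06), Pdgfb by 3.33 ± 0.54, with 1 untreated array under the dim level, and Junb by 1.54 ± 0.16. Tgfbi, a TGFb-induced matrix protein gene, fell at 24 h by 2.02 ± 0.35 (0.00254). For comparison, the change of Ccn2 at 4 h was 0.11 ± 0.07 in wt cells and 0.09 ± 0.07 in both mutants. Its signal is far up the range of the arrays, as given above, and whether saturation bears on this comparison was not tested.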

How the data were processed

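RNA of 18 samples was hybridised to Affymetrix mouse arrays. The deposited values are intensities on a linear scale that the authors made with GCRMA (background correction, normalization and summary per probe set), per the submitters' processing notes, with no version stated. They were converted to log2 with no further normalization. Symbols came from the platform annotation. Of 34945 probe sets with a single symbol, those at a log2 value of at least 5 in at least 2 arrays were kept (17442), and each of 10078 genes was represented by its brightest one. No scan date or batch is given, and the number of arrays limits the precision.

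In R 4.3.3 with limma 3.58.1, the 18 arrays were modelled together with 9 group means, leaving 9 residual degrees of freedom (eBayes with intensity trend, two-sided), with Benjamini-Hochberg adjustment over the genes of each of 16 comparisons. All CCN probe sets were also fitted among 18958 probe sets. If neither array of a group reached 5, a fold is a bound from that level. Lists are described by counts and medians: 5 pathway lists, and markers of fibroblasts, macrophages, skeletal muscle, chondrocytes, endothelial, epithelial (3 of 6 markers under 5 in every array) and neural cells. Named genes were all CCN genes, the 3 most similar profiles and, from each list, the called genes that moved most in wt cells at each time, at most 3. The members and lists were chosen with earlier results of these data known. The fit was tested on simulated data.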

Additional observations from a re-analysis of the deposited data

How the results depend on the processing

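Each CCN change had 17 alternatives, and each interaction 21. They were 12 other fits, a crossed block added after seeing the data, and each array of the compared groups left out. Across them no change took the other sign while called in either fit. Of 2 CCN genes called in wt cells at 4 h, 1 was called with no filter, the mean over probe sets, equal array medians or no intensity trend, and 0 with array weights or only the groups compared. With only the groups compared, 1 of 3 was called in wt cells at 24 h and 0 of 3 for wt 24 h against 4 h. At 4 h 1 of 2 was called in heterozygous cells with the mean of probe sets, and in homozygous cells 1 of 2 with no filter, the mean of probe sets or quantile normalization. Leaving out 1 array gave 1 to 2 at 4 h in wt and in homozygous cells, 2 to 4 at 24 h in wt cells, 2 to 3 for 24 h against 4 h in each genotype and 0 to 1 for untreated homozygous against wt. The cause was not tested.

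Same-numbered arrays deviated together in all 6 pairs of groups within a mutant genotype (r 0.376 to 0.61) and between wt 4 h and 24 h (0.571). Untreated wt arrays ran the other way (-0.492 and -0.663), so not every pair was over 0.1 and the numbers were not used as a pairing. A replicate block over all groups changed no CCN call. A replicate block within genotype gave 1 call in place of 2 in homozygous cells at 4 h (Ccn5, adjusted p = 0.0519) and changed no other CCN call. A crossed block, with the numbers of untreated wt arrays exchanged, called 3 in place of 0 CCN genes (Ccn3, Ccn4 and Ccn5) for untreated homozygous against wt, and 1 more in each of wt at 24 h (Ccn2), heterozygous at 4 h (Ccn3), wt 24 h against 4 h (Ccn1) and homozygous 24 h against 4 h (Ccn4).

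Over all genes, 2108 calls in wt cells at 4 h became 24 with only the groups compared and 194 with array weights, 1175 at 24 h became 75 and 324, and 3456 for 24 h against 4 h became 0 and 1544. Array weights raised the calls in mutants, to 1587 from 712 in heterozygous and 2726 from 867 in homozygous cells at 24 h (2037 with only the groups compared), 5860 from 3795 in the latter at 4 h and 5723 from 3722 for 24 h against 4 h. For untreated heterozygous and homozygous cells against wt, 93 and 178 became 0 and 0 with only the groups compared, 37 and 10 with array weights and 476 and 1058 with the crossed block. That block gave 2011, 1332 and 1607 at 24 h in wt, heterozygous and homozygous cells. With no filter untreated homozygous against wt gave 104, and the interactions 0 to 4. Leaving out 1 array gave 967 to 3382, 1554 to 2082 and 2163 to 2513 calls at 4 h in wt, heterozygous and homozygous cells, 599 to 1881, 303 to 443 and 379 to 450 at 24 h, 1958 to 4172, 1863 to 2145 and 2054 to 2422 for 24 h against 4 h, and 14 to 548 and 11 to 960 between untreated mutants and wt. With equal array medians the higher share of calls for homozygous 24 h against 4 h was 30% in place of 40.5%. Signals under log2 5 limit the sizes given for Ccn3 at 24 h.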

Other observations

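The replicates of Ccn3 differed most among the CCN genes, and not in the same direction in every wt group. Replicate 1 was 1.23 log2 above replicate 2 in untreated wt cells, and the same differences at 4 h and 24 h were -1.5 and -1.57. For Ccn5 they were 0.46, -0.61 and -0.3 in the same wt groups. In heterozygous cells replicate 1 of Ccn3 was above replicate 2 in each group, by 0.79, 0.77 and 0.99 log2, and in homozygous cells the gaps were 0.10, 0.13 and -0.21.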
